A study of Saccharomyces cerevisiae with 10 samples.

Results

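The genes described here carry the names UTP, NOP, DBP or RRP followed by a number, and most encode proteins that build ribosomes in the nucleolus of budding yeast, Saccharomyces cerevisiae. They were chosen by name, as the open reading frames whose standard symbol is one of these prefixes and a number, and 61 of the 6292 open reading frames in the deposited table fit: 18 UTP, 16 NOP, 9 DBP and 18 RRP genes. Of 62 such symbols in the gene table, 1 has no row among the values and is not analysed here. The samples are 10 two-colour arrays, 1 for each hour from 1 to 10. On each, RNA of wild-type diploid cells in filamentous-form growth on SLAD agar, which is low in ammonium, was set against RNA of yeast-form cells grown in SHAD liquid, which has plentiful glucose and ammonium. Per the labels, both channels held wild-type diploid cells. The labels name no strain background, no number of cultures and no repeat array of an hour. Values are log2 ratios, likely filamentous over yeast form, and a positive value is then a higher level in filamentous-form cells.

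A ribosome is assembled from ribosomal RNA, transcribed in the nucleolus as 1 long precursor, and from ribosomal proteins made in the cytoplasm. UTP proteins bind the front of the nascent precursor together with the U3 small nucleolar RNA and form the small subunit processome, in which the RNA of the small (40S) subunit is cut out. NOP proteins are nucleolar proteins of several kinds, among them the core of the small nucleolar RNA particles that modify ribosomal RNA and factors of either subunit. DBP proteins are DEAD-box helicases, most of them working on the large (60S) subunit. RRP genes were named for ribosomal RNA processing and include factors of both subunits and subunits of the exosome, the complex that trims RNA from its 3′ end. In yeast these genes are known for changing together with growth rate and nutrients. The names do not make 1 pathway: DBP5 serves messenger RNA export, DBP1 translation, and DBP2 has roles in messenger RNA as well as ribosomal RNA.

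Each array was centred on its median, so that 0 is the ratio of the middle open reading frame of that array. In RNA of whole cultures, fewer cells that carry a transcript and less of it per cell cannot be told apart, and a ratio gives no level of a gene in either form, so that neither the diploid state nor the growth form could be checked from levels. Usable values per array numbered 5802 to 6063. The hour 1 array had 5960 usable values, a spread of 1.14 (SD of log2 ratios over genes) against 1.04 to 1.23 on the other arrays, and a mean correlation with the other 9 arrays of 0.52 across genes, against 0.50 to 0.61 for the others. Across genes, arrays of hours 3, 5, 7 and 9 correlated with one another at a mean r of 0.64 and even-hour arrays at 0.68, but odd with even ones at 0.51, and the labels name no batch that goes with this. Hour 1 correlated at 0.57 with the other odd hours and at 0.47 with the even ones. Counts within odd and even hours are therefore given below, with values for some single genes only. A call given without such values need not hold in both sets of hours.

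Of the 61 genes, 57 had a value in at least 8 of the 10 hours and were tested, 55 of them with all 10 values. The 4 others are UTP20 with 7 values, from -0.53 to 3.19, RRP36 with 5, from -1.18 to 0.82, DBP1 with 4, from -0.76 to 0.81, and NOP53 with 1, at -0.26. They stay out of every count that follows.

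**Figure D1:**
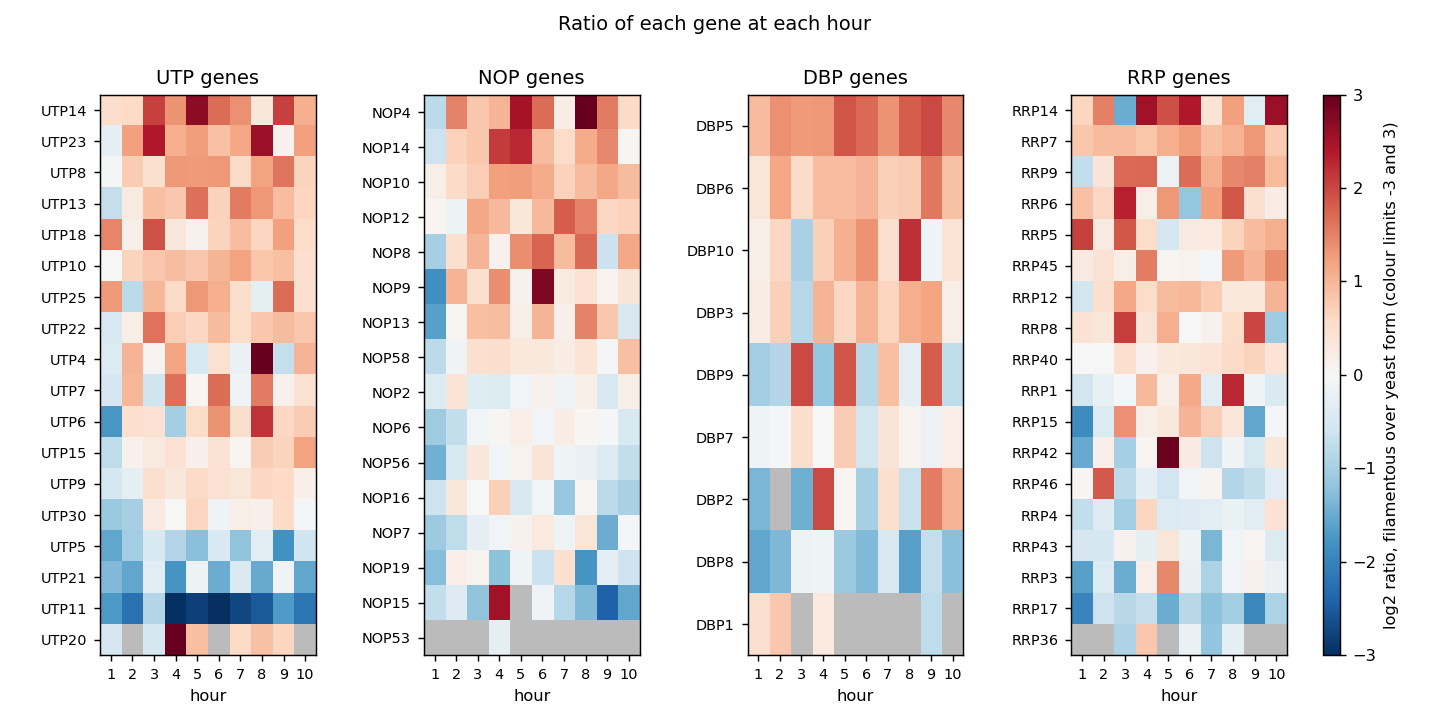
Log2 ratio of filamentous over yeast form (colour, array median = 0) of each of the 61 genes at each hour, in 4 panels by name and sorted by mean, with grey for missing values and genes not tested in the bottom rows. The hour 1 column is bluer than the others, and UTP11 is blue at every hour, with a mean of -2.31.

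Over the 10 hours as a whole, ribosome biogenesis genes of these names were on average higher in filamentous-form cells, with clear exceptions. The mean over hours was above 0 for 39 of the 57 genes, and the median of the means was 0.41, against 0.08 for all 5775 genes tested. In limma, with an adjusted p under 0.05 over all genes, 24 rose and 5 fell in filamentous-form cells. The background is 22.6% of all genes higher and 22.4% lower, and the shares among these genes were 42.1% and 8.77%. Between the name groups, 9 of 17 UTP genes rose and 3 fell, 5 of 15 NOP genes rose and 0 fell, 3 of 8 DBP genes rose and 1 fell, and 7 of 17 RRP genes rose and 1 fell. The medians of the means were 0.54 for UTP, 0.22 for NOP, 0.37 for DBP and 0.34 for RRP genes. Within each group the means covered a far wider range, from -2.31 to 1.37 in UTP, -0.59 to 1.32 in NOP, -0.97 to 1.51 in DBP and -1.16 to 1.14 in RRP, so that the 4 groups overlap over most of their range. The difference between the groups was not tested, since genes are not replicates of a condition.

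**Figure D2:**
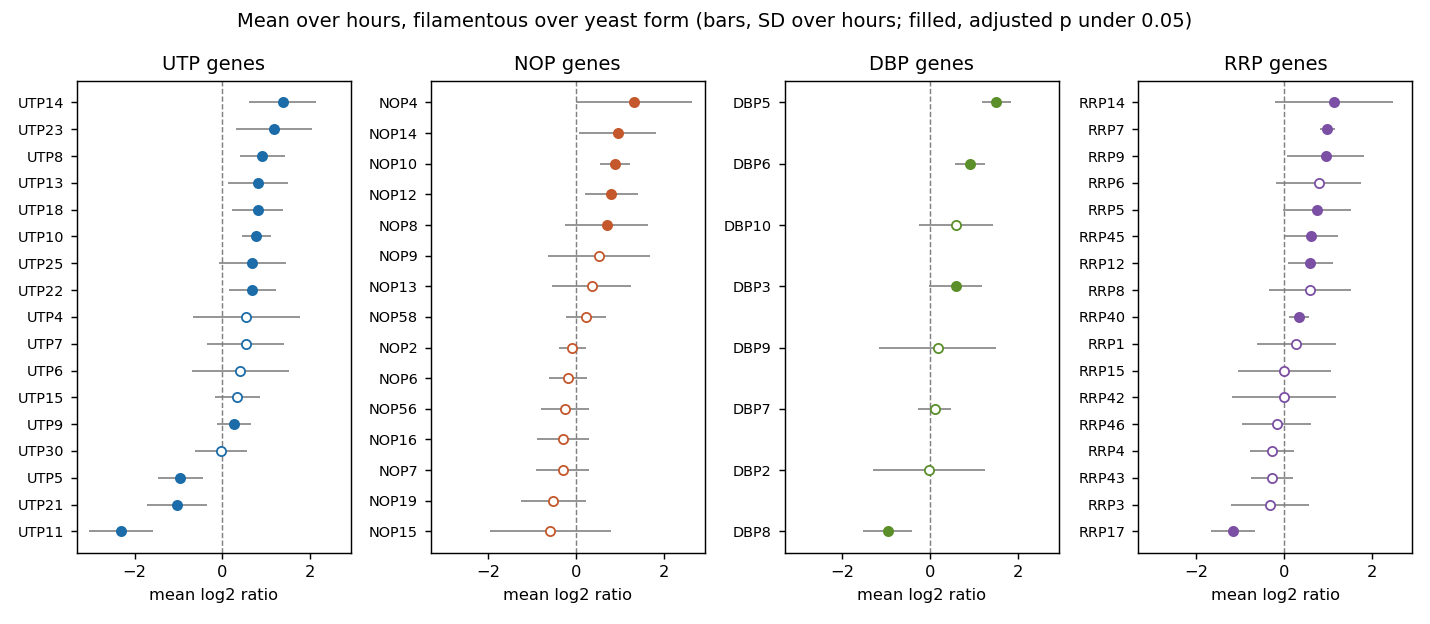
Mean log2 ratio of filamentous over yeast form (horizontal axis, array median = 0) of each tested gene, in 4 panels by name, with bars for the SD over hours and filled points for an adjusted p under 0.05 in limma. Filled points lie on the right for 24 genes and on the left for 5, with UTP11 at -2.31 the lowest and DBP5 at 1.51 the highest.

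Centring bears on these counts. The array medians were deposited at 0.12 to 0.39, which puts the median of the 57 means at 0.71 on the deposited scale, against 0.37 for all genes. There 34 of the genes (59.6%) rose and 5 (8.77%) fell in limma, beside 38.8% of all genes higher and 15.3% lower on the same scale. UTP30, NOP2, NOP6, NOP56, RRP4, RRP43 and RRP46, none of them called, had means below 0 after centring and above 0 as deposited. For DBP2, which has no value at hour 2, only the fitted mean changed sign, from -0.03 to 0.27. With the even hours alone 26 of the 57 genes (45.6%) rose and 6 (10.5%) fell, beside 20.8% and 23.4% of all genes. With the 5 odd hours 10 (17.5%) rose and 5 (8.77%) fell, beside 14% and 16.1% of all genes. With hours 3, 5, 7 and 9 alone 16 (28.1%) rose and 4 (7.02%) fell, beside 12.5% and 15.3% of all genes. Of the 29 genes called over all hours, 15 passed both in hours 3, 5, 7 and 9 and in the even hours, which are the arrays that chose them.

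Among the UTP proteins, those of the subcomplex UtpA, which binds the nascent precursor first, moved in both directions. Of its 6 genes with UTP names, 3 rose and 1 fell, beside 22.6% higher and 22.4% lower of all genes. Whether so few genes differ from these shares was not tested, and calls in both directions also occur among all genes. NAN1, of UtpA under another name, averaged 0.44 ± 0.96 and was not called. UTP8 ran from -0.04 at hour 1 to 1.60 at hour 9, with a mean of 0.91 ± 0.51 (SD over hours, n = 10). UTP10 lay between 0.02 and 1.20 and was above 0 on all arrays, with a mean of 0.77 ± 0.33. UTP9 averaged 0.27 ± 0.39 and passed narrowly (limma adjusted p = 0.0472), a call lost without any 1 of hours 3 to 10. UTP15 and UTP4, at 0.34 ± 0.52 and 0.54 ± 1.22, did not pass (limma adjusted p = 0.0507 and 0.27), and UTP15 passed without hour 1 or without hour 7. UTP5, a member of the same subcomplex, was below 0 on 10 of 10 arrays, between -1.82 and -0.33, with a mean of -0.96 ± 0.51 (limma adjusted p = 0.00114). The ranges of UTP5 and UTP8 over the hours do not overlap.

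In UtpB, a second subcomplex of the processome, 2 of the 4 tested genes with UTP names rose and 1 fell. Here too the shares of all genes are 22.6% higher and 22.4% lower, and a difference from them was not tested. PWP2 and DIP2, of the same subcomplex under other names, averaged 0.25 ± 0.67 and 0.26 ± 1.01 and were not called. UTP13 averaged 0.81 ± 0.68 and UTP18 0.80 ± 0.58, and both rose. UTP6, at 0.41 ± 1.10, did not pass (limma adjusted p = 0.21). UTP21 was below 0 on all arrays, from -1.77 to -0.11, with a mean of -1.03 ± 0.68 (limma adjusted p = 0.00324). The 2 tested UtpC genes of these names, UTP22 and RRP7, both rose, by 0.68 ± 0.54 and 0.99 ± 0.18. RRP36, of the same subcomplex, had too few values for a test, and UtpC subunits of other names are not counted here. RRP7 had the smallest SD over hours of the 57 genes: its 10 ratios lay between 0.79 and 1.31, and their mean is a 1.99-fold higher level in filamentous-form cells.

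The other factors of the processome and of the small subunit include 12 tested genes of these names, not counting RRP9. Of the 12, 4 rose (33.3%), 2 fell (16.7%) and 6 were not called. Of all genes 22.6% were higher and 22.4% lower. The median of the 12 means was 0.24 (as deposited, 0.53). UTP14, the activator of a processome helicase, was above 0 on 10 of 10 arrays, between 0.33 and 2.68, with a mean of 1.37 ± 0.76. UTP23, a processome protein with a nuclease-like fold, averaged 1.17 ± 0.87, from -0.29 at hour 1 to 2.56 at hour 8. NOP14 averaged 0.94 ± 0.87 and RRP9, a protein of the U3 particle, 0.95 ± 0.87, and both rose. UTP25 rose by 0.68 ± 0.76 (limma adjusted p = 0.0436), a call that was lost in 8 of the 10 fits that leave out 1 hour.

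UTP11, also a processome protein, had the lowest mean of the 57 genes. It stood at -1.73, -2.25, -0.88, -3.06, -2.79, -3.27, -2.73, -2.52, -1.70 and -2.17 in hours 1 to 10, below 0 on every array. Its mean of -2.31 ± 0.72 is a 4.96-fold lower level in filamentous-form cells (limma adjusted p = 8.9e-06). DBP8, a helicase of the small subunit, was lower by 0.97 on the log2 scale, at -0.97 ± 0.56, and below 0 on 10 of 10 arrays. None of the 61 genes overlaps another gene in the gene table.

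Among the proteins of the modification particles, NOP10, of the H/ACA particle that makes pseudouridine, was above 0 on all arrays, from 0.18 to 1.25. Its mean was 0.88 ± 0.34 (limma adjusted p = 8.3e-05). Of the same particle, CBF5 averaged -0.03 ± 0.53 and GAR1 0.02 ± 0.42. Neither these nor NHP2 passed (limma adjusted p = 0.89, 0.88 and 0.98). NOP56 and NOP58, core proteins of the box C/D particle that guides methylation, had means of -0.26 ± 0.54 and 0.22 ± 0.46 and did not pass (limma adjusted p = 0.0909 and 0.21). NOP56 passed as lower without hour 3, at -0.33, although its mean was 0.03 on the deposited scale.

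Of 18 tested factors of the 60S subunit with these names 6 rose (33.3%) and 1 fell (5.56%), beside 22.6% and 22.4% of all genes. NOP4, an RNA-binding protein of early 60S particles, averaged 1.32 ± 1.32, with its lowest value, -0.78, at hour 1 and its highest, 4.09, at hour 8. DBP6, a helicase of the earliest 60S particles, kept between 0.37 and 1.59, with a mean of 0.90 ± 0.34. NOP12 averaged 0.80 ± 0.61. The calls of DBP3, at 0.58 ± 0.61, and NOP8, at 0.69 ± 0.94, were lost in 6 and 5 of the 10 fits that leave out 1 hour. RRP14 averaged 1.14 ± 1.34, but its mean was 0.13 over hours 3, 5, 7 and 9 and 2.05 over even hours, and its call was lost in 8 of 10 such fits. RRP17, a nuclease of 60S assembly, was the 1 that fell: its ratios lay between -1.99 and -0.61, with a mean of -1.16 ± 0.49 (limma adjusted p = 0.00028). RRP5, which acts in both subunits, averaged 0.75 ± 0.78 and RRP12, an export factor, 0.60 ± 0.51, and both rose.

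Of 7 tested exosome genes with RRP names, 2 rose (28.6%) and 0 fell, beside 22.6% higher and 22.4% lower of all genes. The median of their means was 0.00 (as deposited, 0.30). Among exosome subunits of other names, SKI6 and MTR3 were lower, at -1.64 ± 0.32 and -0.82 ± 0.44, and CSL4 and DIS3 were not called. RRP45, of the exosome ring, averaged 0.62 ± 0.62 and RRP40, of its RNA-binding cap, 0.34 ± 0.23. The call of RRP45 was lost without hour 10 (limma adjusted p = 0.058). RRP6, the nuclear exosome nuclease, averaged 0.79 ± 0.97 and missed the threshold (limma adjusted p = 0.0579), but passed without hour 6, at 1.01.

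The highest mean of the 57 belonged to DBP5, the helicase of messenger RNA export. It had ratios of 0.96, 1.37, 1.27, 1.31, 1.88, 1.70, 1.35, 1.81, 1.98 and 1.44 in hours 1 to 10. Its mean of 1.51 ± 0.32 is a 2.84-fold higher level in filamentous-form cells (limma adjusted p = 3e-06), with hour 1 the lowest. DBP2 ranged from -1.47 at hour 3 to 1.99 at hour 4, with an SD of 1.28 (n = 9). Its fitted mean of -0.03 did not pass (limma adjusted p = 0.96). With hour 2 missing, this is the intercept of the fit, and the plain average of the 9 values is slightly above 0.

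Among all 57 genes 7 were above 0 and 5 below 0 on every array that measured them, 12.3% and 8.77%. The shares over all genes tested were 9.84% and 14.3%. The 5 are UTP5, UTP11, UTP21, DBP8 and RRP17, the same genes that limma called lower.

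The second comparison set hours 2 to 10 against hour 1. From hour 2 on the typical gene of these names was above the array median, while at hour 1 it was below it. The median of the 57 genes was 0.23, 0.47, 0.56, 0.35, 0.45, 0.36, 0.58, 0.32 and 0.42 in hours 2 to 10, and -0.56 at hour 1. Hour 1 is thus the 1 array on which the median is negative, and the later hours show no steady drift. On the deposited scale the median lay between 0.48 and 0.95 in hours 2 to 10 and at -0.21 at hour 1. The mean of the later hours was above hour 1 for 51 of the 57 genes (89.5%), against 51.8% of all 5663 genes with a value at hour 1. The median of the differences was 0.86 on the log2 scale, against 0.04 for all genes.

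**Figure D3:**
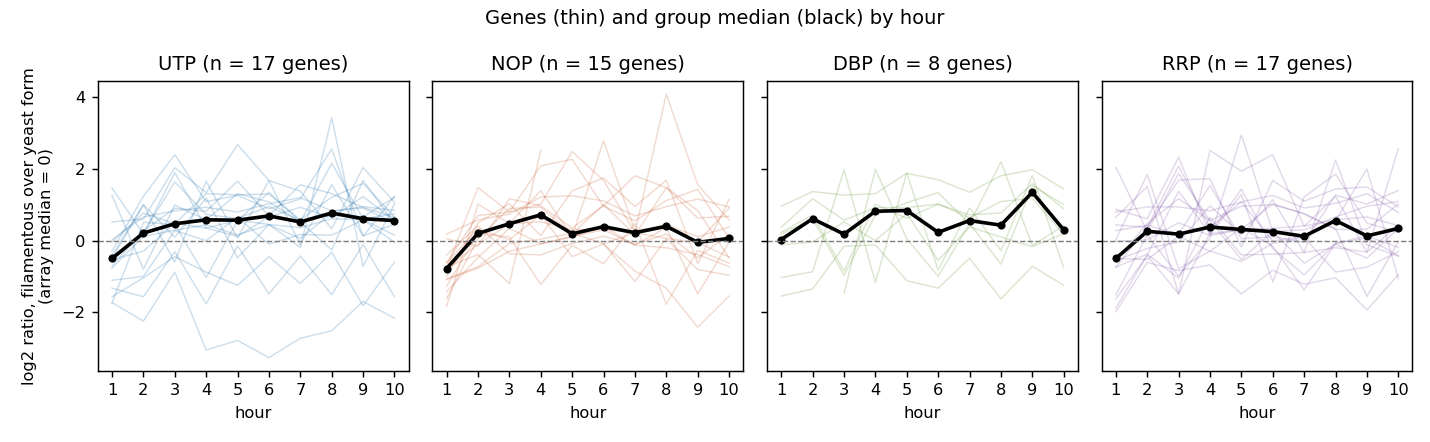
Log2 ratio of filamentous over yeast form (vertical axis, array median = 0) by hour, in 4 panels by name, with a thin line for each tested gene and a black line for the median of the group. The black line starts below 0 in UTP, NOP and RRP genes and at 0.03 in DBP genes, and is above 0 from hour 2 on, except for NOP genes at hour 9.

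By name group, the medians of hours 2 to 10 lay between 0.21 and 0.77 for UTP genes, with -0.50 at hour 1. For NOP genes they lay between -0.05 and 0.72, with -0.78 at hour 1, the lowest group median of any hour. For RRP genes they lay between 0.12 and 0.56, with -0.50 at hour 1. For DBP genes the medians lay between 0.18 and 1.35 in the later hours, with 0.03 at hour 1. The later mean was above hour 1 in 14 of 17 UTP, 15 of 15 NOP, 8 of 8 DBP and 14 of 17 RRP genes, and the median differences were 1.05, 0.98, 0.59 and 0.52. Among the RRP genes, the 7 of the exosome had a median difference of 0.38.

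No single gene passed this test. In limma 0 of the 57 genes were called in either direction, as were 0% of all genes higher and 0.053% lower in hours 2 to 10, and the smallest adjusted p among the 57 was 0.28. The test has 1 array on one side and assumes that it varies as the 9 later ones do. At an unadjusted p under 0.05 in limma, 19 of the 57 genes (33.3%) were higher in the later hours and 0 lower, against 6.32% and 5.32% of all genes. They were 9 UTP, 7 NOP, 3 RRP and 0 DBP genes. Hour 1 was the lowest of the 10 hours for 28 of the 55 genes with all values (50.9%), against 17.2% of all genes with all values. Since odd hours resemble each other, hour 1 was also set against hours 3, 5, 7 and 9 alone. There 49 of 57 genes were higher in the later hours, against 2858 of all 5663 genes with a value at hour 1. The median difference was 0.92, against 0.01 for all genes, and again 0 of the 57 genes were called.

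**Figure D4:**
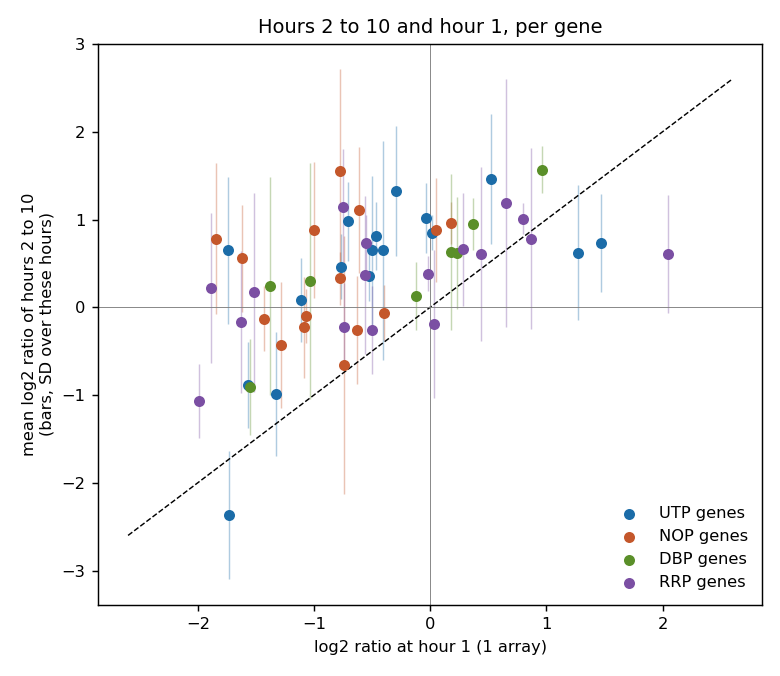
Mean log2 ratio of hours 2 to 10 (vertical axis, bars for the SD over these hours) against the log2 ratio at hour 1 (horizontal axis, 1 array) for the 57 tested genes, coloured by name, with a dashed line of equality. Of the 57 points 51 lie above the line, and RRP5 lies farthest below it.

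The gene with the largest difference in each name group did not pass either. NOP9, an RNA-binding protein of 18S ribosomal RNA maturation, averaged 0.78 ± 0.86 in hours 2 to 10 (SD, n = 9 hours), each of them at 0.11 or above, and stood at -1.84 at hour 1, a difference of 2.61 ± 0.83 (SE, limma adjusted p = 0.32). UTP6 averaged 0.65 ± 0.84 in the later hours and stood at -1.74 at hour 1, a difference of 2.39 (limma adjusted p = 0.36). RRP15, a 60S factor, averaged 0.22 ± 0.86 in the later hours, reaching down to -1.56 at hour 9, and stood at -1.89 at hour 1, a difference of 2.11 (limma adjusted p = 0.39). DBP2 averaged 0.24 ± 1.24 in the later hours and stood at -1.38 at hour 1, within the range of its later values, a difference of 1.62 (limma adjusted p = 0.61).

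Hour 1 lay below every later hour in 28 of the 55 genes with all values, against 17.2% of all genes with all values. The values of 4 of them follow, of which only RRP12 is among the genes flagged below for 1 hour far from the others. UTP13 had 0.27, 0.90, 0.82, 1.66, 0.69, 1.56, 1.31, 0.93 and 0.65 in hours 2 to 10 and -0.71 at hour 1, each above the value at hour 1. RRP12 lay between 0.31 and 1.17 in the later hours and at -0.55 at hour 1. NOP58 lay between -0.11 and 0.91 in the later hours and at -0.78 at hour 1, and its partner NOP56 between -0.73 and 0.39 and at -1.43. These 4 genes were chosen after their values were seen. Against the trend, 6 genes were lower in the later hours than at hour 1: UTP11, UTP18, UTP25, RRP5, RRP6 and RRP46. RRP5 averaged 0.61 ± 0.67 in the later hours and stood at 2.05 at hour 1, its highest value (difference -1.44, limma adjusted p = 0.43).

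A linear change over the hours was not detected. In limma 0 of the 57 genes had a slope past the threshold, as did 0% of all genes in either direction. The median slope was 0.059 per hour over all hours and 0.013 per hour without hour 1, against 0.002 and 0.004 for all genes. The genes were also compared with one another over time. The median correlation between pairs of the 55 complete genes was 0.24 over the 10 hours and 0.07 over hours 2 to 10, against 0.00 for all genes in both cases. By group it was 0.30 and 0.12 for UTP, 0.45 and 0.13 for NOP, 0.06 and -0.04 for DBP, and 0.07 and -0.03 for RRP genes. These points share arrays and the split of odd and even hours, and are descriptions.

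A few genes alternated between odd and even hours. Leaving hour 1 aside, the odd hours lay wholly above the even hours for 3 of the 55 complete genes, DBP9, UTP21 and UTP30, and wholly below for 2, UTP4 and UTP7. The shares of 5.45% and 3.64% compare with 7.45% and 3.95% of all genes. DBP9, a 60S helicase, had 1.98, 1.89, 0.91 and 1.82 in hours 3, 5, 7 and 9, but -0.87, -1.17, -0.83, -0.28 and -0.76 in the even hours and -1.03 at hour 1. Its mean over all hours was 0.17 ± 1.33. UTP21 averaged -0.25 over hours 3, 5, 7 and 9 and -1.58 over even hours, and it did not pass in hours 3, 5, 7 and 9 alone (limma adjusted p = 0.32). UTP4 and UTP7 averaged 1.42 and 1.27 over even hours, and -0.32 and -0.13 over hours 3, 5, 7 and 9.

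**Figure D5:**
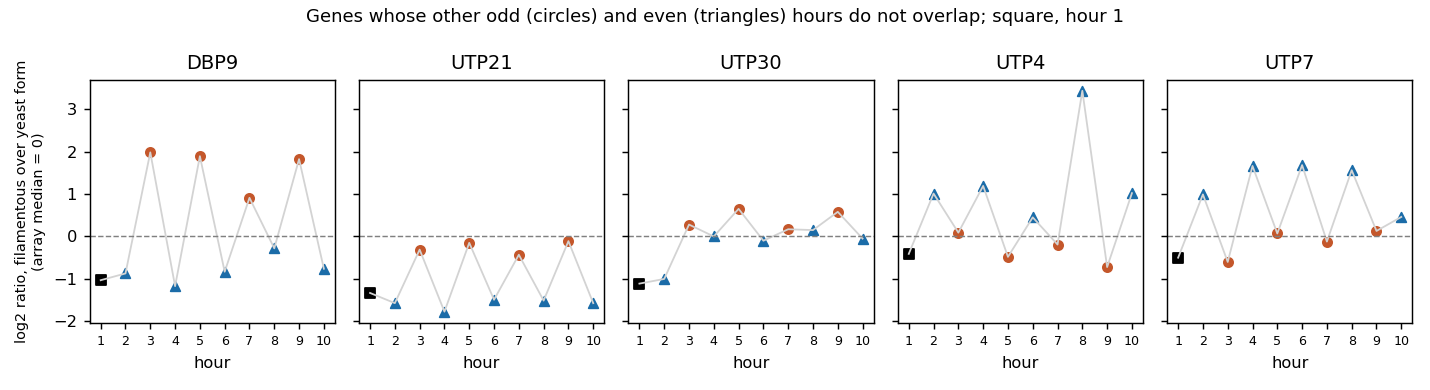
Log2 ratio of filamentous over yeast form (vertical axis, array median = 0) by hour for DBP9, UTP21, UTP30, UTP4 and UTP7, with circles for hours 3, 5, 7 and 9, triangles for even hours and a square for hour 1. Circles lie above triangles in DBP9, UTP21 and UTP30 and below them in UTP4 and UTP7.

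Other genes of the same process were taken from lists written from general knowledge. The lists hold 109 tested genes of small and large subunit assembly, nucleolar particles and the exosome. In the mean over hours, 35 (32.1%) were higher in filamentous-form cells and 14 (12.8%) lower, beside 22.6% higher and 22.4% lower of all genes. The median of their means was 0.25 (as deposited, 0.55). In the list for 60S assembly 21 of 47 rose and 6 fell (median 0.38). Its highest mean was that of NPA3, at 1.55 ± 0.63, which is not an established 60S factor. Next came NOC2 at 1.43 ± 0.74, SSF2 at 1.26 ± 0.94 and SPB1 at 1.06 ± 0.72. Lowest was TIF6, which keeps immature 60S subunits from joining, at -1.65 ± 0.65. NOG1, a GTPase of 60S maturation, averaged -1.05 ± 0.94, REI1, a cytoplasmic 60S factor, -0.84 ± 0.54, and RSA4, a nuclear 60S factor, -0.77 ± 0.85, the last a call lost on the deposited scale. In small subunit assembly 10 of 39 rose and 5 fell (median 0.14), with KRE33, an acetyltransferase of 18S ribosomal RNA, at 1.19 ± 0.89, DIM1, a methyltransferase of the same RNA, at 1.17 ± 1.01 and BMS1, a processome GTPase, at 1.15 ± 0.86. The helicase HCA4, with a fitted mean of 0.95 and an SD of 0.83 (n = 8 hours), passed narrowly (limma adjusted p = 0.0496). FYV7 and IMP3, at -1.37 ± 0.48 and -1.28 ± 0.57, were below 0 on all arrays, as was the helicase ROK1 at -0.63 ± 0.27. The helicase FAL1 averaged -1.20 ± 1.52, a call lost on the deposited scale. Of 12 proteins of nucleolar particles 1 rose and 1 fell, SNU13 at 0.46 ± 0.56 and BCD1 at -1.34 ± 0.33. Of 11 exosome subunits and cofactors 3 rose and 2 fell, the cofactors LRP1 at 1.68 ± 1.00, MTR4 at 1.24 ± 1.10 and AIR2 at 0.93 ± 0.41, and the ring subunits SKI6 at -1.64 ± 0.32 and MTR3 at -0.82 ± 0.44.

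In these genes hours 2 to 10 were above hour 1 for 84 of 105 (80.0%), against 51.8% of all genes. Their median was between -0.17 and 0.49 in the later hours and -0.53 at hour 1. At hour 2 their median, -0.17, was below 0, and that of the UTP, NOP, DBP and RRP genes was 0.23. Of 7 tested regulators of ribosome biogenesis genes 0 rose and 1 fell (14.3%), beside 22.6% higher and 22.4% lower of all genes. SFP1, an activator of these genes, averaged 0.20 ± 0.61, the kinase SCH9 -0.19 ± 0.32, the repressors TOD6 and DOT6 0.15 ± 0.65 and -0.23 ± 0.63, and the TOR kinases TOR1 and TOR2 0.19 ± 0.31 and 0.29 ± 1.23, none of them called (limma adjusted p between 0.15 and 0.55). SFP1, TOD6 and TOR1 passed as higher on the deposited scale, at 0.50, 0.45 and 0.49, and TOR2 with odd hours alone, at 1.21. KOG1, a subunit of TOR complex 1, passed, at -1.37 ± 0.49 and below 0 on 10 of 10 arrays (limma adjusted p = 2.6e-05).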

How the data were processed

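The authors' deposited table holds log2 ratios of the 2 channels of 10 arrays, 1 per hour. The base of the logarithm follows from 2 to the power of nearly every value being a whole number of ten-thousandths, and the direction of the ratio, filamentous over yeast form, is likely but not stated. Neither the labels nor the table state the dyes, the background correction or the normalization. Each of the 62920 values in the table ends in the digit 3 at the 7th decimal, so that no value is exactly 0. Cut to 6 decimals, 98.43% of the ratios are whole ten-thousandths within 0.02, against 97.25% as they stand. The values were therefore cut, and the 3324 (5.28%) that became 0, which read 0.0000003 in the table, were taken as missing. Where the digit comes from is not known.

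Names were matched to a RefSeq gene table of assembly R64 (5792 of 6292). Arrays were centred on their medians, and genes with at least 8 values were fitted with limma 3.58.1 in R 4.3.3 (lmFit, eBayes): an intercept with linear and quadratic terms in hour for the mean and slope, and an indicator for hours 2 to 10 against hour 1. P-values are two-sided, were adjusted over all genes by the Benjamini-Hochberg method, and were called under 0.05. P-values measure scatter between single arrays, which may be technical, and the number of arrays limits the precision. The SD beside a mean is over hours and includes any trend. For a gene with missing hours the mean is the fitted intercept, which can differ from the plain average of its values. The code was tested on simulated data.

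Genes named were, per name group, up to 4 called genes with the highest and the lowest means and the gene with the largest difference from hour 1, and, per list of other genes, up to 4 called in each direction and all regulators. Others are given as values. Members, lists and tests were chosen with earlier results of these data known. Alternatives covered scaling, zeros, filters, variance model, array weights, odd and even hours, the definition of early hours and leaving out each hour. Those on the 7th decimal, on hours 2 to 10 alone, on hours 3, 5, 7 and 9 alone and on each other hour set apart were added after the data were seen. Figures were drawn with matplotlib 3.10.9.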

Additional observations from a re-analysis of the deposited data

Results flagged for a closer look

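On 1 array the typical gene of these names stood far from where it was on the other 9. At hour 1 the median of all 57 tested genes was -0.56, with the nearest other hour at 0.23, a gap of 0.70 of the whole range over hours. The medians of the UTP, NOP and RRP genes stood apart at the same hour, at -0.50, -0.78 and -0.50, with the nearest other hours at 0.21, -0.05 and 0.12. The medians share their array, so these are not separate observations.

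Among single genes, 7 of 57 had 1 hour far from the others. Of the 55 with all 10 values they were 6 (10.9%), beside 9.95% of all genes with 10 values, and chance gives about 1 in 20. The 7 were DBP3 at -0.85 in hour 3, NOP15 at 2.52 in hour 4, RRP42 at 2.95 in hour 5, RRP43 at -1.38 in hour 7, RRP46 at 1.85 in hour 2, UTP4 at 3.43 in hour 8 and RRP12 at -0.55 in hour 1. Without hour 4 the mean of NOP15 was -1.02, and it passed as lower (limma adjusted p = 0.00464).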

How the results depend on the processing

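Leaving out 1 hour at a time, the number of the 57 genes that rose ran from 19 to 25 and the number that fell from 5 to 7. The median of the means ran from 0.29 to 0.61, and that of hours 2 to 10 minus hour 1 from 0.79 to 0.93. The median of 0.61 came without hour 1, the 1 array on one side of the second comparison, which cannot be made without it. The calls of UTP9, UTP25, NOP8, DBP3, RRP14 and RRP45 were lost in at least 1 of these fits, and 9 genes gained one: UTP15 (without hour 1 or 7), NOP9 and NOP13 (without hour 1), DBP10 and NOP56 (hour 3), NOP15 and RRP4 (hour 4), RRP6 (hour 6) and RRP8 (hour 10). Among the other genes of the process and regulators, 31 to 40 rose and 13 to 17 fell. With even hours alone 26 genes rose, beside 20.8% of all genes, the median of NOP genes was 0.41, 32 of 116 genes of the lists of other genes and regulators rose, and DBP9 was called lower, at -0.78. With odd hours alone 10 genes rose, beside 14% of all genes, the median of NOP genes was -0.15 (0.24 without hour 1) and 15 of the 116 list genes rose. On the deposited scale 60 of the 116 rose, beside 38.8% of all genes. Hours 3 to 10 exceeded hours 1 and 2 together by a median of 0.60, and exceeded hour 2, with hour 1 left out, by 0.28. In every alternative 0 of the 57 genes were called for the later hours against hour 1 and 0 for a linear change. Keeping the 7th decimal changed no count of calls. No paired analysis was possible because the study has 1 group of arrays and no repeat of an hour. Signal over background is unknown, since spot intensities are not used here.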

Other observations

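Each hour was set against the other 9 in turn. The other hours exceeded hour 1 by a median of 0.86, with 51 of 57 genes higher, while for hours 2 to 10 the same median lay between -0.23 and 0.21 and 1 to 5 genes reached an unadjusted p under 0.05 in limma, against 19 for hour 1. Over all genes, 21 were called for hour 4, 21 for hour 7 and 20 for hour 10 in these fits, and 3 for hour 1.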
